A study of Mus musculus with 4 samples.

Results

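The regions described here are the 50 kb bins of chromosomes 1 to 19 that overlap the body of a protein-coding vomeronasal receptor gene, that is, a gene of the GENCODE vM21 annotation (mm10) whose symbol starts with Vmn1r or Vmn2r. The rule used position and annotation only, and it picked 327 of the 48020 bins of these chromosomes that hold assembled bases. The bins carry 329 genes, 208 Vmn1r and the others Vmn2r, and 3 of these genes have symbols that mark a pseudogene although the annotation lists them as protein-coding. Replication timing (RT) was measured by Repli-seq in diploid F121-9 mouse embryonic stem cells (mESCs), a hybrid line of the strains Castaneus and 129 grown in N2B27 medium with 2i and LIF, and no cell carried a treatment or an engineered change named in the labels. Cells were pulsed with BrdU, a nucleotide analog that marks new DNA, sorted by DNA content into an early and a late S-phase fraction, and the labeled DNA was sequenced in 2 libraries of each fraction. The deposited value of a bin, RT, is the log2 of early over late reads, each as RPM (scaled to library size), so RT above 0 means more early than late reads and is called early here, and RT below 0 is called late. One value per bin combines all 4 libraries, so replicate error is unknown, the depth behind a bin is unknown, and no test of a difference was made. The positions are those of the mm10 assembly, which was made from C57BL/6J, a strain other than the parents of the hybrid, so the arrays may differ between the cells and the assembly.

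Vomeronasal receptors are G protein-coupled receptors of the vomeronasal organ, a chemosensory structure at the base of the nasal septum that detects pheromones and other social cues. V1Rs, encoded by Vmn1r genes, have their coding sequence in a single exon, bind mostly small molecules such as steroids and signal through the G protein subunit encoded by Gnai2, while V2Rs, encoded by Vmn2r genes, have a long extracellular domain spread over several exons, bind peptides and proteins and signal through the subunit encoded by Gnao1. The genes multiplied by local duplication and lie in arrays of close copies, and a sensory neuron expresses 1 or a few of them. Late replication is, as a rule, a property of gene-poor, AT-rich and silent chromatin, and early replication of gene-rich and active chromatin.

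The close kinship of the copies is visible in their sequence. Reads that fit several places in a genome are hard to place, and whether this affected the values below was not tested. The following 4 sequences are the bases upstream of the RefSeq gene models (GRCm38.p6, the same build) of the Vmn1r genes with the lowest RT and of the Vmn2r genes with the highest and the lowest RT, 5′ to 3′ on the strand of the gene, with the word TATAAA in capitals on either strand. Bases that GENCODE places in an exon were left off, and for that reason the window of Vmn1r85, the Vmn1r gene with the highest RT, is not shown. They lie at chr7:20510535-20510784 (minus strand, Vmn1r103), chr7:20533587-20533836 (plus strand, Vmn1r104), chr7:42793526-42793746 (minus strand, Vmn2r62) and chr7:9992258-9992389 (minus strand, Vmn2r49).
Vmn1r103: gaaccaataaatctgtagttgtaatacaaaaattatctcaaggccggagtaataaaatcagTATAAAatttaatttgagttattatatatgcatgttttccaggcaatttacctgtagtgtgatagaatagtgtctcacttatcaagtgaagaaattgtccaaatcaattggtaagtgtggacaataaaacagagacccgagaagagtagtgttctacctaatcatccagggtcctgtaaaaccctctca
Vmn1r104: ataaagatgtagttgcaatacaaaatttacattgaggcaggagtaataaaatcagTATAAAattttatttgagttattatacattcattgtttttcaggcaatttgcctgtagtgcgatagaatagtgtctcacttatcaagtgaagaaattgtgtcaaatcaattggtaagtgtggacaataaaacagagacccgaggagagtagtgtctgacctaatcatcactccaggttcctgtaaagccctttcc
Vmn2r62: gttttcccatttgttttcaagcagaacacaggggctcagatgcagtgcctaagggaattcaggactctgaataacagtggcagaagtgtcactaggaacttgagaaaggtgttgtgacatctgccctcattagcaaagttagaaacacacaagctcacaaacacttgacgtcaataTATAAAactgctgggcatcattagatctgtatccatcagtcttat
Vmn2r49: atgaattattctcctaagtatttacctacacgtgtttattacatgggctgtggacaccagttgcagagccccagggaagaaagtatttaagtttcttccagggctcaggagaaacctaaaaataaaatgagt

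Vmn1r103 and Vmn1r104 stand in the same bin and their windows are 86.0% identical, with 35 single-base edits over 250 bases. Over the full 250 bases, the window of Vmn1r103 is 100% identical to that of Vmn1r151, the window of Vmn1r104 to that of Vmn1r152, and the window of Vmn2r49 to that of Vmn2r32. The window of Vmn2r62 is 94.8% identical to its closest, that of Vmn2r57. Among all genes with a window, the closest window of the same family had a median identity of 82.0% for 183 Vmn1r genes and of 90.4% for 114 Vmn2r genes. RefSeq held windows for 297 of the receptor genes, 298 windows in all, of which 86.6% end at an annotated start codon, compared with 6.13% of the windows of all genes with a start codon. For most receptors the window is therefore the sequence just before the coding sequence, which need not be the promoter, and comparisons with other genes are between unlike places. Bases that GENCODE places in a receptor exon are in 226 of the 298 windows. With these limits, GC content was 36.2% in the receptor windows and 53.4% in all 31396 windows of chromosomes 1 to 19. Of the receptor windows, 32.6% had no CpG, compared with 7.64% of all windows. The word TATAAA, on either strand, was in 33.6% of the receptor windows and in 12.4% of all windows, and TAATTA, a homeodomain word, was in 11.4% and 4.81%. The palindromic EBF motif was in 0 receptor windows and in 0.790% of all windows. In 942 windows of olfactory receptor genes, GC content was 34.7% and 44.5% had no CpG. TATAAA was in 39.3% of these, TAATTA in 18.2% and the EBF motif in 0.425%. The low GC content, the lack of CpG and the shares with TATAAA and TAATTA were thus not particular to vomeronasal receptors. A word found or not found in these bases says nothing about binding.

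The vomeronasal receptor bins replicated mostly late. RT was available for 315 of the 327 bins, and 275 of these, 87.3%, were below 0 (83.1% to 90.8% as exact 95% interval, for counting error alone, and neighboring bins are not independent), compared with 57.9% of all 47923 bins of chromosomes 1 to 19 with a value. The lowest RT of a receptor bin was -4.26, the median -2.46 (order-statistic 95% interval -2.68 to -2.23) and the highest 3.31, with quartiles of -3.24 and -1.01. The median of all bins was -0.85, and the receptor median stood at the 33.5th percentile of all bins. The receptor bins thus lay in the late part of the profile but not at its end. RT below -2 was found in 186 receptor bins, 59.0%, compared with 38.7% of all bins, and RT above 2 in 9, 2.86%, compared with 23.7%. The remaining 40 bins were above 0, where 42.1% of all bins lie.

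Both receptor families had nearly the same distribution. In 147 bins with Vmn1r genes only, the median RT was -2.34 (95% interval -2.68 to -1.95) and 87.1% were below 0. In 165 bins with Vmn2r genes only, the median was -2.52 (-2.82 to -2.23) and 87.3% were below 0. The difference of the medians was 0.18, and each median lay within the interval of the other. Over clusters that hold 1 family the difference had the opposite sign, as the median of the cluster means was -1.63 for 10 Vmn1r clusters and -1.002 for 13 Vmn2r clusters. Without chromosome 13 the difference over bins was -0.02. Of the sum of squares of RT over the receptor bins, 1.04% lay between bins by family and 37.8% between clusters.

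Olfactory receptors, the larger chemoreceptor family of the main olfactory epithelium, gave a median RT of -1.98 over 588 bins, 78.9% of them below 0, and only 1 receptor bin is shared with them. The vomeronasal median was 0.48 lower on the log2 scale, but without the bins of chromosome 7 the difference was -0.02, so it rested on that chromosome. Zinc finger genes with a Zfp symbol, many of which also stand in arrays of duplicated genes, gave a median of 2.53 over 509 bins with 18.1% below 0. The plot of cumulative distributions shows the chemoreceptor families close together and the zinc finger genes on the other side of all bins.

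**Figure D1:**
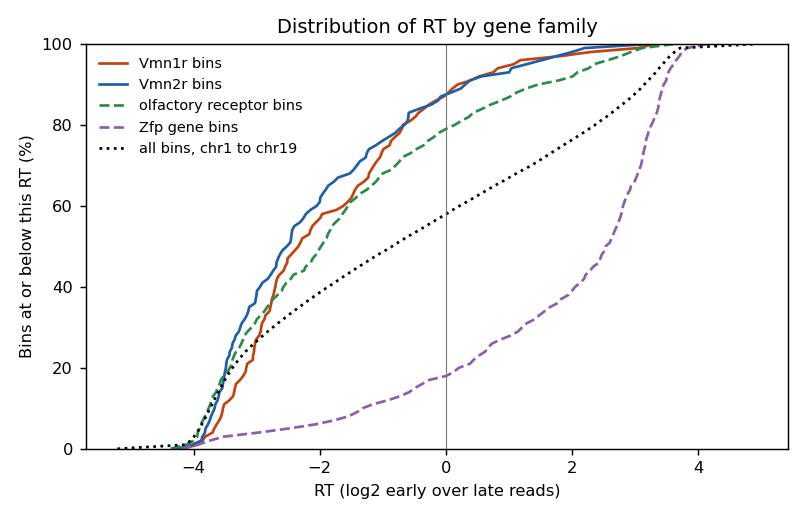
Cumulative distributions of RT (log2 early over late RPM) for bins with Vmn1r genes, Vmn2r genes, olfactory receptor genes, Zfp genes and for all bins of chromosomes 1 to 19; the y axis gives the percentage of bins at or below an RT. The Vmn1r and Vmn2r curves cross 0 at 87.1% and 87.3%, above all bins at 57.9% and Zfp genes at 18.1%.

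Genes whose bodies are 1 Mb or less apart were joined into clusters, which gave 26, and 16 of these with 3 or more genes held 316 of the 329 genes. Mean RT was below 0 in 22 clusters and above 0 in 4. The 4 early ones were small: Vmn1r1 alone on chromosome 1 had RT 3.27, Vmn2r-ps159 near the end of chromosome 4 had 2.00, Vmn2r18 on chromosome 5 had a mean of 0.64 over 2 bins, and Vmn2r84 to Vmn2r87 on chromosome 10 had a mean of 0.62 over 3 bins, from 0.24 to 1.02. Of the single genes, Vmn1r90 on chromosome 7 had the lowest RT, -3.63.

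The Vmn1r clusters, in which V1Rs stand alone, differed in their level. Vmn1r4 to Vmn1r31 (chr6:56924015-58475330) holds 28 genes, 25 of them V1rc genes, and had a mean RT of -2.53 with bins from -3.83 to 1.13. Vmn1r40 to Vmn1r54 on the same chromosome, with the V1ra and V1rb genes, had a mean of -2.02, from -3.17 to 0.08. It contains Vmn1r49, known as V1rb2, a receptor for 2-heptanone, with a gene RT of -2.79. Vmn1r32 to Vmn1r39, also on chromosome 6, was closer to 0, with a mean of -0.57 and bins from -1.02 to 0.16. Vmn1r188 to Vmn1r223 on chromosome 13, with the V1rh and V1ri genes, had a mean of -1.27, from -2.77 to 0.78. Vmn1r91 to Vmn1r183 (chr7:20099680-24063554), the cluster with the most genes, 65, had a mean of -2.14 over the 37 of its 46 bins with a value, from -4.17 to 0.96.

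Among clusters of 3 or more genes, the means of Vmn2r clusters ran from -3.04 to 0.62 and those of Vmn1r clusters from -2.53 to -0.57. Vmn2r65 to Vmn2r79 (chr7:84935565-87044941) was late throughout, with a mean of -3.04, an SD of 0.49 over 24 bins and bins from -3.88 to -2.07. Vmn2r1 to Vmn2r7 on chromosome 3, the family C receptors that are co-expressed with other V2Rs, had a mean of -2.76 and a gradient along the array, from gene RT -1.22 at Vmn2r1 and -0.93 at Vmn2r3 to -3.73 at Vmn2r7. Vmn2r19 to Vmn2r27 on chromosome 6 had a mean of -2.59, from -3.60 to -0.59, and includes Vmn2r26, a receptor for peptides that bind major histocompatibility molecules, at -2.79. These 3 were the only clusters of 3 or more genes without a bin above 0.

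The remaining Vmn2r clusters were less late or mixed. Vmn2r8 to Vmn2r17 on chromosome 5 had a mean of -1.12, from -2.27 to 1.33. Vmn2r80 to Vmn2r83 on chromosome 10 had a mean of -0.61, from -1.48 to 1.74. Vmn2r111 to Vmn2r117 on chromosome 17 had a mean of -0.27, from -1.57 to 1.99, and Vmn2r57 to Vmn2r63 (chr7:41395945-42933822) had a mean of -0.14, from -2.45 to 3.24. In the last of these the SD over 13 bins was 1.92, so its mean near 0 does not describe its bins.

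The clusters with both families held long late stretches, apart from Vmn1r55 to Vmn1r65, where the late stretch was 750 kb long. Vmn2r29 to Vmn1r89 (chr7:7231327-13220657), the longest at 5989 kb, has 24 Vmn1r and 28 Vmn2r genes and a mean RT of -2.29 with bins from -4.26 to 3.31, the lowest and the highest of all receptor bins. Vmn2r90 to Vmn1r237 (chr17:17703747-21314912), with 14 Vmn1r and 22 Vmn2r genes, had a mean of -2.94, and 42 of its 43 bins were below 0. Vmn1r55 to Vmn1r65 on chromosome 7, with 11 Vmn1r genes and Vmn2r28, had a mean of -1.17 and the largest SD of any cluster of 3 or more genes, 1.93, with 4 bins above 0 and 7 below.

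**Figure D2:**
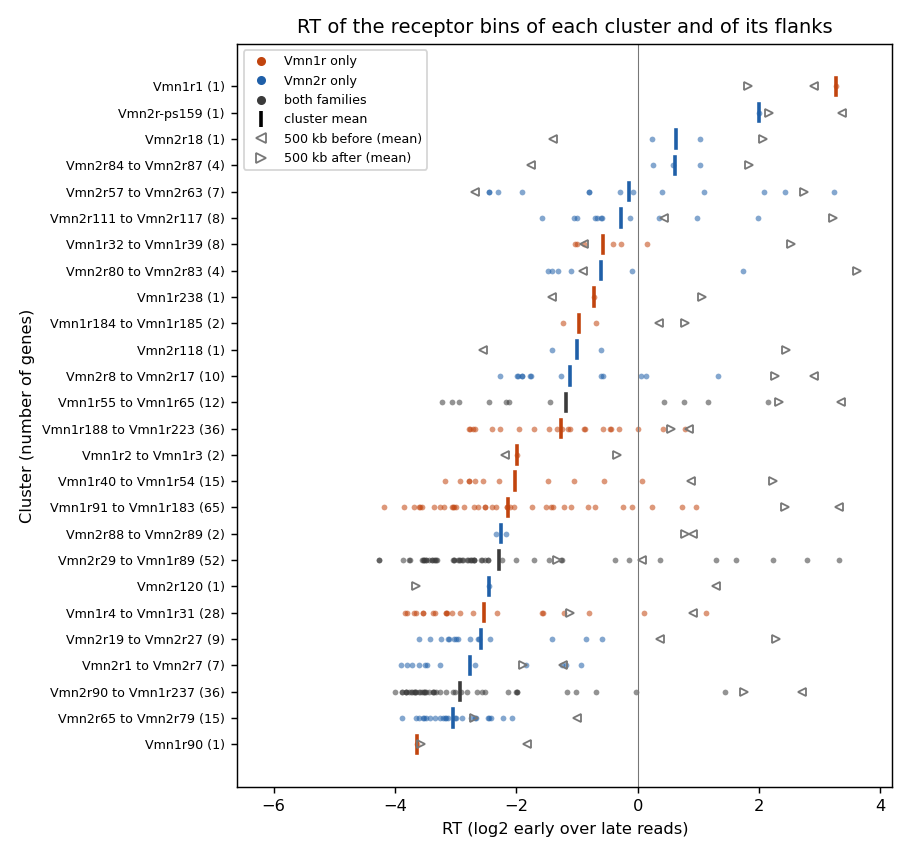
RT of every receptor bin (points) in each of the 26 clusters, sorted by the cluster mean (vertical bars), with the mean RT of the 500 kb before and after the cluster as open triangles; colors give the receptor families in the cluster. Cluster means run from -3.63 to 3.27, and the triangles of most clusters of 3 or more genes stand to the right of the cluster mean.

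The surroundings of the clusters replicated earlier than the clusters. For the 16 clusters of 3 or more genes, the mean RT of the 500 kb on a side was above the cluster mean on 28 of 32 sides and above 0 on 22, and the median difference, flank minus cluster, was 2.89 on the log2 scale. Both flanks were above 0 at 8 clusters, 1 flank at 6 and no flank at 2, Vmn2r1 to Vmn2r7 and Vmn2r65 to Vmn2r79. The largest step was at the left side of Vmn2r90 to Vmn1r237, with a flank of 2.70 beside the cluster mean of -2.94. The opposite order occurred at 4 sides, most at the left of Vmn2r57 to Vmn2r63, where the flank had a mean of -2.68.

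Genes near the ends of an array made up 19 of the 26 early ones in long clusters. Of 287 genes with a value in the 13 clusters of 500 kb or more, 59 lay within 100 kb of a cluster end, and their gene RT, the mean over the bins a gene overlaps, had a median of -0.44 (95% interval -0.81 to -0.09). The 228 genes further in had a median of -2.76 (-2.93 to -2.64). Gene RT was above 0 for 19 genes near an end, 32.2%, and for 7 further in, 3.07%, beside 73.6% of all 20742 protein-coding genes of chromosomes 1 to 19. Genes of 1 bin share a value, so these counts are of annotated genes and not of independent measurements. Olfactory receptor genes were arranged alike: in 20 clusters chosen by the same rule, 67 of 166 genes within 100 kb of an end, 40.4%, were above 0, and 69 of 847 further in, 8.15%.

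Across the 26 ends of these 13 clusters, the median RT was between 1.18 and 2.07 in every 100 kb step over 100 kb outside, 0.56 in the last 100 kb outside and -0.81 in the first 100 kb inside. It was -1.56 at 100 to 200 kb, -2.21 at 200 to 300 kb and -3.02 at 500 to 600 kb inside, where 12 ends remained. The transition thus lay around the outermost receptor genes and extended well into the arrays. The quartiles were wide outside, from -0.17 to 1.39 in the last 100 kb, the narrowest of the outside steps, and from -1.28 to 3.08 at 500 to 600 kb, so ends differed among themselves.

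**Figure D3:**
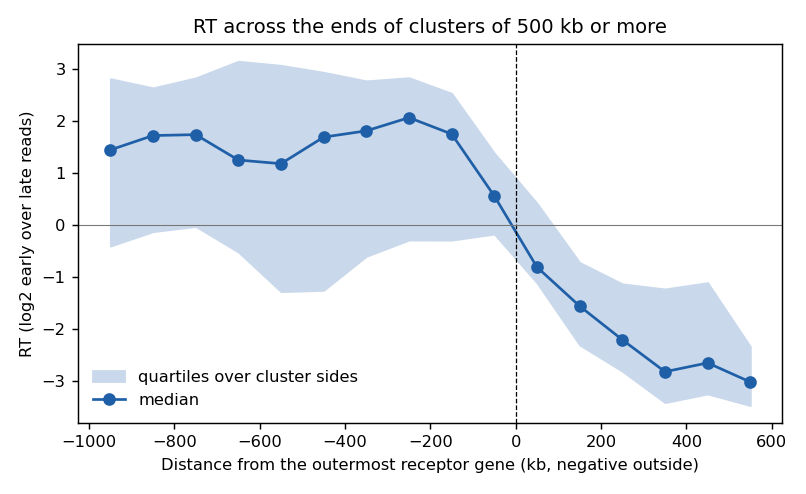
RT (log2) against the distance from the outermost receptor gene of clusters of 500 kb or more, in steps of 100 kb with negative distances outside the cluster; points are medians and the band spans the quartiles over 26 cluster ends outside, falling to 12 at 500 to 600 kb inside. The median is 0.56 just outside, -0.81 just inside and -3.02 at 500 to 600 kb inside.

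The receptor bins below 0 belonged to 26 late runs, stretches in which no bin with a value was above 0. Their median length was 900 kb, compared with 800 kb for all 933 late runs of chromosomes 1 to 19. A longer run is more likely to hold any given bin, so these medians are of unlike sets. In Vmn1r91 to Vmn1r183, runs of 2050 and 900 kb were parted only by the bin of Vmn1r142 and Vmn1r143, at RT 0.23. Only 0.659% of the 50-base words in that bin occur once in the assembly. A bin at RT 0.02, next to that of Vmn1r163, parted the second run from a further run of 900 kb. The number and lengths of the runs thus rest in part on such single values, which need care. The longest late run with a receptor, 6350 kb on chromosome 17, holds the single bin of Vmn2r120. The run with the most receptor bins, 42, extends over 3500 kb in chr17:17850001-21350000 and had a mean RT of -2.96. Along Vmn2r29 to Vmn1r89, late runs of 2200 and 3150 kb began with the first bin of the array and were parted by a single bin without a receptor gene at RT 0.59, 2194 kb into it, next to a bin without a value. Past the second run the profile reached RT above 3 at Vmn1r85. The cluster Vmn2r57 to Vmn2r63 had the shape of waves: RT was 1.09 at Vmn2r57, -2.45 in the trough 679 kb into the array and 3.24 at Vmn2r62.

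**Figure D4:**
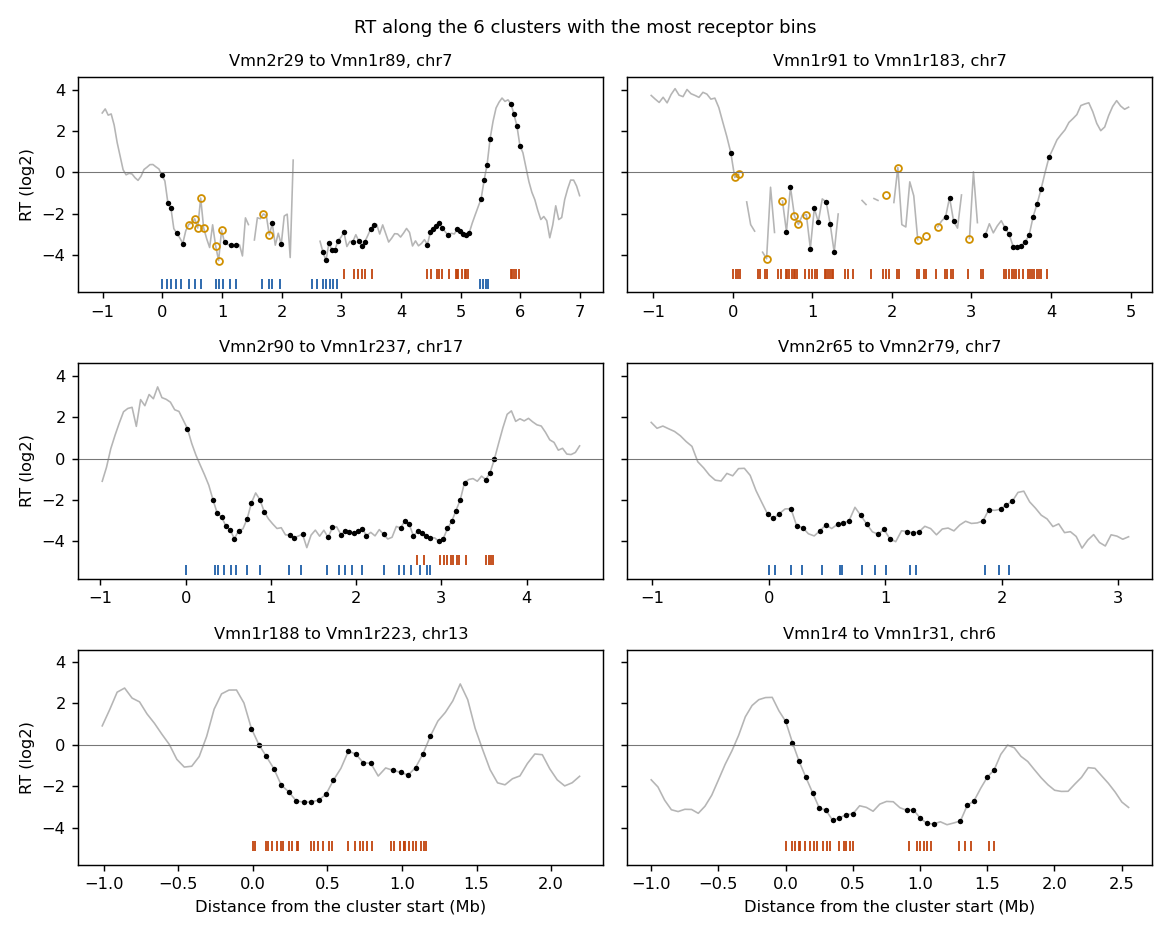
RT (log2) along the 6 clusters with the most receptor bins, against the distance from the start of the cluster in Mb; filled points are receptor bins, open points are receptor bins of which under 10% of the 50-base words are unique, gray lines join all bins with a value, and ticks mark Vmn1r (upper row, orange) and Vmn2r (lower row, blue) genes. The arrays sit in troughs below 0 and most of their ends climb toward the flanks, with gaps in the 2 upper clusters where bins have no value.

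Per gene, a value was available for 316 genes, with a median gene RT of -2.34 (95% interval -2.53 to -2.11). The median was -2.28 for 197 Vmn1r genes and -2.46 for 119 Vmn2r genes. In all, 182 of the 316 genes were below -2, compared with 2638 of all 20742 protein-coding genes with a value. Gene RT was above 0 for 35 genes, 11.1% (exact 95% interval 7.84% to 15.1%, counting of genes only), 19 Vmn1r and 16 Vmn2r. Of all protein-coding genes, 73.6% were above 0.

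The earliest V1R genes stood together at the right end of Vmn2r29 to Vmn1r89. Gene RT was 3.31 for Vmn1r85, 3.06 for Vmn1r86, 2.80 for Vmn1r87, 2.24 for Vmn1r88 and 1.29 for Vmn1r89. Vmn1r85 and Vmn1r89 are also named V1rj3 and V1rj2, receptors for sulfated estrogens, and Vmn1r85 shares its bin (chr7:13050001-13100000) with Mzf1, a zinc finger transcription factor gene. The 5 genes lie on a slope, since the bin before that of Vmn1r85 had RT 3.50 and the bin after that of Vmn1r89 had 0.95.

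Outside this group, Vmn1r1 had RT 3.27 between bins at 3.37 and 3.02, so it lay in an early region with no other receptor. At the left end of its cluster, Vmn1r55 had 2.14 in a bin shared with Rfpl4 and Rasl2-9, and Vmn1r56 had 1.16. Vmn1r188 had 0.78 at the left end of the chromosome 13 array, and Vmn1r65 had 0.76 at the right end of its cluster in a bin shared with Nlrp4c. The last 4 of these genes lay within 100 kb of an end of their cluster.

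Among V2R genes, Vmn2r62 had the highest gene RT, 3.24, followed by its neighbor Vmn2r63 with 2.25. Only 21.1% of the 50-base words in the bin of Vmn2r62 occur once in the assembly, but its neighbor bins, at 2.62 and 2.49, were early too. Gene RT was 2.00 for Vmn2r-ps159, 1.99 for Vmn2r117, 1.74 for Vmn2r83, 1.44 for Vmn2r90, 1.02 for Vmn2r87, 1.00 for Vmn2r56, 0.81 for Vmn2r86 and 0.74 for Vmn2r57. Apart from Vmn2r56 and Vmn2r62, these genes lay within 100 kb of an end of their cluster. That was fixed in advance for Vmn2r-ps159, which stands alone, and for Vmn2r86 and Vmn2r87, whose cluster is 119 kb long. Vmn2r117, Vmn2r83, Vmn2r90, Vmn2r87, Vmn2r57 and Vmn2r63 are outermost genes.

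Vmn2r116 and Vmn2r115, V2Rs with known ligands of the exocrine gland-secreting peptide (ESP) family, stood near this early edge on chromosome 17. Vmn2r116, the receptor for ESP1, had a gene RT of 0.67, and Vmn2r115, a receptor for ESP22, had -0.17. RT along their bins went from -0.70 through 0.35 and 0.98 to 1.99 at Vmn2r117, so these adjacent genes lay on either side of 0 on a single slope.

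The lowest V1R values were -4.17 for Vmn1r103 and Vmn1r104, which share a bin, and -4.00 for Vmn1r226 on chromosome 17. The lowest V2R values were -4.26 for Vmn2r49, -4.06 for Vmn2r48 and -3.90 for Vmn2r41, all in Vmn2r29 to Vmn1r89. These rest on unlike sequence: 97.6% of the 50-base words in the bin of Vmn1r226 are unique, but 1.53% in that of Vmn1r103 and Vmn1r104, 21.8% over the bins of Vmn2r49, 17.1% of Vmn2r48 and 5.67% of Vmn2r41. The order of these low genes is therefore not known beyond the noise given below.

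The V1R classes, named by the older letters that RefSeq lists as synonyms for 126 Vmn1r genes, differed in median gene RT. The median gene RT was -3.04 for 13 V1re genes, -2.81 for 11 V1rg, -2.72 for 31 V1rc, -2.61 for 8 V1ra and also for 6 V1rb, and -2.12 for 19 V1rd genes. It was -1.43 for 10 V1ri, -1.18 for 20 V1rh and -0.68 for 5 V1rf genes. Both V1rj genes and the V1rk gene were above 0, with medians of 2.30 and 2.80, and all 3 stand in the same early end on chromosome 7. V1rc, V1rd and V1re stand in 2 or 3 clusters and every other class in 1, so class and position cannot be told apart.

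In sequence, the receptor bins were poor in GC and rich in repeats. Median GC content was 38.9%, compared with 41.4% in all bins, 39.4% in all bins with RT below 0 and 38.5% in olfactory receptor bins. Repeat-masked bases made up a median of 53.9% of a receptor bin, compared with 31.4% in all bins and 46.2% in olfactory receptor bins, and CpG density was 5.26 per kb compared with 7.74. Vmn2r bins had a lower median GC content than Vmn1r bins, 38.1% and 39.8%.

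Set beside bins of like GC content, the receptor bins were not later than others. In 157 receptor bins within the quartiles of receptor GC content the median RT was -2.46, and in 9902 other bins of the same GC range it was -2.92. Those other bins mostly hold no gene start: among bins of that GC range with at least 1 protein-coding gene start, the median was -2.25 in 118 receptor bins and -1.67 in 1422 others. Among all bins with a gene start the medians were -2.45 in 253 receptor bins and 1.99 in 13322 others.

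Across the 315 receptor bins with a value, RT had a Spearman correlation of 0.39 with GC content, 0.29 with CpG density, 0.13 with gene starts, 0.10 with repeats and -0.11 with unique words. Across all 47923 bins it was 0.75 with GC content, 0.73 with CpG density, 0.43 with gene starts and -0.29 with repeats. With unique words it was 0.29 across 959 bins, taken as every 50th bin. For repeats and unique words the sign was thus opposite to that in receptor bins. These correlations describe bins of 1 pooled profile, which share their libraries and neighborhoods. Another protein-coding gene was present in 12 of the 40 early receptor bins, 30% (exact 95% interval 16.6% to 46.5%), and in 22 of the 275 late ones, 8% (5.08% to 11.9%). The early bins also tended to lie at cluster ends, where other genes begin, and the part of either in the other was not tested.

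Unique sequence was scarce in some arrays. Of the 50-base words of the assembly, sampled at 1 in 8, a median of 74.4% per receptor bin occur once, compared with 94.02% in every 50th bin of chromosomes 1 to 19 and 84.03% in olfactory receptor bins. Under 10% of words were unique in 39 receptor bins, 11.9%, compared with 0.728% of the sampled bins. The median was 11.97% over the bins of Vmn1r91 to Vmn1r183 and 52.9% over those of Vmn2r29 to Vmn1r89, and it was at least 39.6% in every other cluster.

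The 12 receptor bins without RT, 3.67% compared with 0.202% of all bins, belonged to these same clusters, 9 to Vmn1r91 to Vmn1r183 and 3 to Vmn2r29 to Vmn1r89. In each of them at most 3.65% of words are unique. The 13 genes without a value were Vmn2r46, Vmn2r47, Vmn1r100, Vmn1r101, Vmn1r107, Vmn1r130, Vmn1r131, Vmn1r132, Vmn1r135, Vmn1r137, Vmn1r139, Vmn1r151 and Vmn1r165. The closest window upstream of the gene model was a median of 100% identical for the 10 of them with a window, compared with 80.8% for genes in bins with at least 50% unique words.

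Noise from bin to bin, taken as the SD of the difference between a bin and the mean of its neighbors (from the median absolute deviation), was 0.17 in all bins and 0.18 in receptor bins. It was 0.16 in 247 receptor bins with at least 50% unique words, 0.43 in 40 with 10% to 50%, and 0.85 in 20 with under 10%. The measure covers bin-to-bin noise and real bends of the profile, not differences between cultures, and an even slope cancels out in it. Whether read placement gave rise to the larger values in the less unique bins was not tested. The level hardly moved when the less unique bins were left out: in the 247 bins the median RT was -2.45 and 85.4% were below 0. In the same way, of genes in bins with at least 50% unique words, 18 of 52 near a cluster end and 3 of 164 further in were above 0.

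Some single values in the repeated arrays need care. The bin of Vmn1r142 and Vmn1r143 had RT 0.23 between bins at -1.46 and -2.53, 0.659% of its words are unique, and 21 bins of the deposited profile hold the same RT to 6 decimals. The bin of Vmn1r94 and Vmn1r95 had RT -0.09, which 25 bins hold. In all, 5 receptor bins, 1.59%, had an RT held by 3 or more bins, compared with 0.0814% of all bins. Of the 7 early genes over 100 kb from a cluster end, Vmn1r142 and Vmn1r143 thus rest on such a value, and the others, Vmn2r55, Vmn2r56, Vmn1r85, Vmn1r86 and Vmn2r62, have an early bin on at least 1 side.

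**Figure D5:**
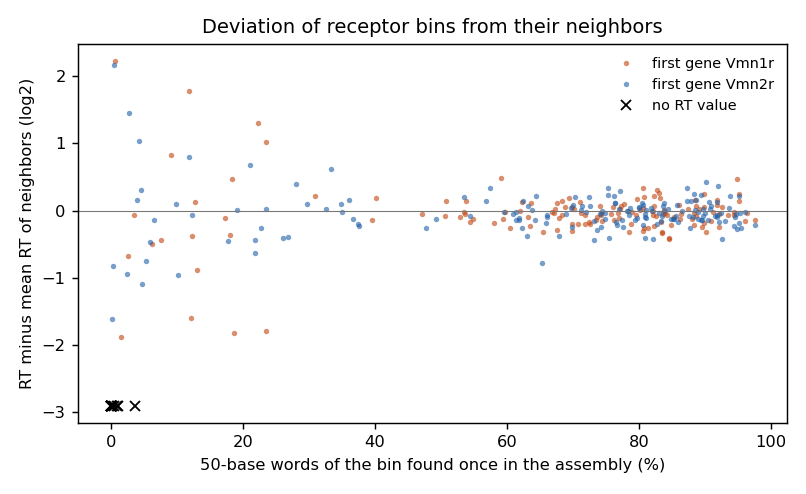
Difference in RT (log2) between each receptor bin and the mean of its neighbor bins, against the percentage of the bin's 50-base words that occur once in the assembly; crosses at the bottom mark the 12 bins without RT. The differences scatter with an SD of 0.16 above 50% unique words and of 0.85 below 10%, and the bins without RT are all at 3.65% or less.

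The other genes of the vomeronasal system, are given by role. Of the ligands, major urinary proteins (Mup, carriers of volatile cues that also act as pheromones) had a median gene RT of -2.27 with 5 of 22 above 0, from Mup1 at -3.93 to Mup21 at 1.79. The Esp genes, which encode the peptide ligands of V2Rs, were all below 0, 15 of 15, with a median of -3.41. For all protein-coding genes, 26.4% were below 0. The Mup genes all lie in a single stretch of chromosome 4 and the Esp genes in a single stretch of chromosome 17. Some share a bin value, so these counts are not of independent measurements. The share of unique words was not taken for these lists. Formyl peptide receptors, of which the Fpr-rs members are expressed in vomeronasal neurons, were below 0 in 7 of 7, with a median of -2.0. All 7 lie within 1 Mb of a Vmn gene on chromosome 17, in the late run of Vmn2r90 to Vmn1r237. The bin of Fpr-rs4 is itself a receptor bin, so this count is not independent of the receptor bins. Fpr-rs3, 27.4 kb from the closest Vmn gene, had -3.83, while Fpr1 and Fpr2 near the left end of the array shared the value -0.32.

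Of the signal transduction genes, 10 of 12 were above 0 with a median of 2.94, beside 73.6% of all protein-coding genes above 0 with a median of 2.31. Gnai2, the V1R partner, had 3.90, Trpc2, the cation channel that vomeronasal neurons depend on, had 3.73, and Gnao1, the V2R partner, had 0.33, while the adenylate cyclase gene Adcy2 had -2.77 and the chloride channel gene Ano2 had -0.65. Of the surface partners of V2Rs, B2m and H2-M genes, 6 of 10 were above 0, with B2m at 2.99 and H2-M11 at -1.54. Of the genes of neuron identity, 6 of 9 were above 0, with Tfap2e, a transcription factor of V2R neurons, at 3.14, the olfactory marker gene Omp at 2.37 and the homeobox gene Emx2 at -1.78. These counts are near the 73.6% of all protein-coding genes and say nothing particular about these lists.

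No RNA was measured, so the labeled cell type could not be checked by expression. The pluripotency genes Pou5f1, Sox2, Nanog, Klf4, Esrrb, Zfp42, Dppa2 and Dppa4 were all above 0, from 2.18 to 3.51, where 73.6% of all protein-coding genes lie above 0, so their timing is a weak check. Nanog, at 3.17, lies 594 kb from the closest Vmn2r gene, at the left of Vmn2r19 to Vmn2r27.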

How the data were processed

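Repli-seq of F121-9 cells comprised 4 libraries, 2 per S-phase fraction (early, late). The authors scaled reads per bin to RPM and took log2 of early over late, and the deposited log2 values, 1 per 50 kb bin, were used as given. The submitters' processing notes name Bowtie2, SAMtools, bedtools and mm10. Smoothing, filters on bins and the way replicates were combined are not given in the sources used here. In repeated arrays, a mapping quality filter could leave few reads in a bin. Of 51427 deposited bins, those of chromosomes 1 to 19 were analysed, and 5 values in bins without assembled bases were left out.

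Bins were matched to GENCODE vM21 gene bodies. Clusters joined genes up to 1 Mb apart, and flanks were 500 kb. Shares have exact binomial and medians order-statistic 95% intervals. Unique words are 50-base words found once in the assembly on both strands. Upstream windows are from RefSeq (GRCm38.p6), and identity is from edit distance (edlib 1.3.9.post1). Named were clusters of 3 or more genes or with an early bin, the 3 highest and lowest genes of each family, the 20 earliest genes and examples from the gene lists, besides genes named for a known ligand, a missing or shared value, or the text around them. A gene of the neuron identity list is not analysed here. The members, lists and rules were chosen with earlier results of these data known. Scripts were tested on simulated data, with Python 3.11.15, numpy 2.4.6, pandas 2.3.3, scipy 1.17.1, numba 0.67.0 and matplotlib 3.10.9.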

Additional observations from a re-analysis of the deposited data

How the results depend on the processing

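No paired analysis was possible because only 1 pooled column of RT was used, without replicate or fraction values, and alternatives that leave out a replicate were not run for the same reason. Of 92 alternatives, 84 left a result within its interval or, for a count, within 1.5 times, 6 moved it and 2 reversed it. The share of receptor bins below 0 was 82.4% with receptor pseudogenes and other biotypes added, 74.9% with the limit at RT -1 and 59.0% at RT -2, and 86.0% to 88.3% when each chromosome was left out in turn. The median RT was -1.22 over cluster means, and -2.55 to -2.07 with each chromosome left out, the latter without chromosome 7. The Vmn1r minus Vmn2r difference was -0.63 over clusters of 1 family, and -0.022 to 0.39 with each chromosome left out, reversed without chromosome 13. The difference from olfactory receptors was -0.57 to -0.021, the latter without chromosome 7. The number of clusters, 26, was 22 to 29 with other distances and X, the number with an early bin was 14 to 16, and 30 to 36 genes were above 0. The alternative with at least 50% unique words, chosen after seeing the data, gave 85.4%, -2.45, 0.02, -0.46, 16 clusters and 30 genes. Beyond what the settings themselves fix, the cause was not tested. The effect of depth, which is unknown per bin, was not tested.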

Other observations

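The X chromosome, outside the rule, holds 2 more protein-coding receptor genes. Vmn2r121 had a gene RT of -1.48 and Vmn1r239-ps had -2.93.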
